A study of Mus musculus with 4 samples.

Results

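HOX genes encode homeodomain transcription factors that set position along the body axis, and in the mouse they lie in 4 clusters, HoxA to HoxD, on chromosomes 6, 11, 15 and 2. The HOX peaks described here are all ATAC-seq peaks of the deposited table whose gene name is Hoxa, Hoxb, Hoxc or Hoxd followed by a number. These were 31 of 70436 peaks, and all 31 passed the filter on low tag counts and were tested. HoxA held 9 of them, HoxB 11, HoxC 9 and HoxD 2. A peak carries the gene name that the deposited annotation gives it, by distance to a transcription start site (TSS). That gene need not be the one the peak acts on, nor the gene with the nearest RefSeq start.

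The cells were melb-a, an established line of mouse melanoblasts, the embryonic precursors of pigment cells, with a genotype given as wt in every library. All were kept in medium with the growth factors SCF and Fgf2, infected with a lentivirus carrying a short hairpin RNA, and selected with puromycin. Control 1 carried shLuciferase and control 2 shScramble, hairpins without a target in the mouse genome by design, while the Hira libraries carried shHIRA I and shHIRA II. HIRA is a histone chaperone that places the variant histone H3.3 into chromatin independently of DNA replication. There was 1 library per hairpin and 1 cell line, the degree of Hira knockdown was not analysed here, and the table calls the Hira columns knockouts although the labels give hairpins. No label gives separate cultures, so the p-values measure only the spread between these libraries, which may be technical.

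Within a cluster the HOX genes are arranged in the order in which they are used along the axis, from group 1 at the anterior (3′) end to group 13 at the posterior (5′) end. Genes with the same group number in different clusters are paralogues. In cells that do not use them, HOX clusters are classic targets of Polycomb complexes, which keep chromatin compact and mark it with trimethylated H3K27, and trithorax complexes oppose this. Melanoblasts come from the neural crest, whose HOX usage depends on the axial level of origin, and the cranial neural crest anterior to the hindbrain is known for lacking HOX expression.

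Promoters of HOX genes are often rich in CpG dinucleotides. RefSeq promoter windows (GRCm38.p6, 250 bases before to 50 after a start) were found for 22 of the 39 HOX genes, with 24 windows. Their median GC content was 57.7% and their median CpG number 14.5 per window, against 52.7% and 7 in all 32851 windows. The letters TATAAA, searched on both strands, were present in 4 of the 24 windows (16.7%) and in 13.6% of all windows. A peak overlapped only 3 of the 24 windows, those of Hoxa3, Hoxa5 and Hoxa10 with 20, 29 and 12 CpGs, while the 21 windows with no peak held 4 to 45. No window was found for Hoxb5, Hoxb13, Hoxc10 or Hoxc13, which had promoter peaks. Among the 24 windows, the CpG numbers of those with a peak lay within the range of those without (medians 20 and 14). The sequences below show this range: the 250 upstream bases with the most and the fewest CpGs among windows under a peak (Hoxa5, 28 CpGs, and Hoxa10, 7) and among windows with no peak (Hoxa13, 35, and Hoxd11, 2). Hoxa10 and Hoxd11 each have another window, with 20 upstream CpGs and no peak. The distances of the Hoxd11 peak and the intronic Hoxa10 peak are measured from the starts of those other windows. CpGs are in capitals, and each sequence is written 5′ to 3′ on the strand of its gene. The Hoxa5 stretch is chr6:52204588-52204837, Hoxa10 chr6:52240855-52241104 and Hoxa13 chr6:52260881-52261130, all on the minus strand, and Hoxd11 chr2:74679308-74679557 on the plus strand.
Hoxa5 (peak): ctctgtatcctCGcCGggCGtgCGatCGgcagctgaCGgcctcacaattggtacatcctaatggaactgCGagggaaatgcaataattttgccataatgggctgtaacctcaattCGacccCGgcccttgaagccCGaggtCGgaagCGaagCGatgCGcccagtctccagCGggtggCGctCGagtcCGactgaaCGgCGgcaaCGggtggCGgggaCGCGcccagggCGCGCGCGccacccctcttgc
Hoxa10 (peak): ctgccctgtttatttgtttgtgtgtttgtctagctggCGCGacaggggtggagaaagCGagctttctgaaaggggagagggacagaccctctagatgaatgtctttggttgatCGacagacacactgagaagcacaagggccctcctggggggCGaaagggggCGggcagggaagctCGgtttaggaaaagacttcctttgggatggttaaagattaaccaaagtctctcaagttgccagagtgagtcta
Hoxa13 (no peak): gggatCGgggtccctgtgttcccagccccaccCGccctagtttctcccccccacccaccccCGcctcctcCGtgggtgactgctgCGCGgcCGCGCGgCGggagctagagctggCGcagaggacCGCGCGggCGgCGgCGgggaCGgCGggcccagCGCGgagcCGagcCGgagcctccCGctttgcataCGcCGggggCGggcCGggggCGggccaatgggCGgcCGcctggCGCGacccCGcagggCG
Hoxd11 (no peak): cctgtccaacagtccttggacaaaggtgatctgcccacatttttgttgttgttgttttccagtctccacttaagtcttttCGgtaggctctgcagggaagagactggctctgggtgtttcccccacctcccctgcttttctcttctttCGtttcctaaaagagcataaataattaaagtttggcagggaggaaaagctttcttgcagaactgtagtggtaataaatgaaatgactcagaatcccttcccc

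Total tags in peaks were 20716859.5 and 15804532 in controls 1 and 2, and 14718721 and 8910983 under hairpins I and II, so hairpin II gave the least precise values. The control libraries differed by less than sampling noise (chi-square per peak 0.935 over 69933 peaks, against 6.24 over 68605 peaks for the Hira pair). Means and n therefore treat the control pair as a single sample. Levels are in CPM, which corrects the tags of a peak for library size (here with TMM factors), with a control level (n = 1) and a Hira mean ± SD (n = 2). Of 10 melanoblast marker genes 9 had an assigned peak (none carried the name Pmel), 7 of them within 1 kb of a TSS. No keratinocyte marker had an assigned peak within 1 kb of its TSS (0 of 6). Such a peak was present for 3 of 7 fibroblast, 5 of 5 Schwann cell, 2 of 5 endothelial and 2 of 5 immune markers. The Hira promoter peak had 72.5 and 72.2 CPM in the controls and 62.8 and 73.3 under hairpins I and II, which does not check a knockdown that acts on the transcript.

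Of the 39 HOX genes, 22 had at least 1 peak of their own, 15 of them a single peak and 7 several. HoxA had peaks at 7 of 11 genes, HoxB at 8 of 10, HoxC at 5 of 9 and HoxD at 2 of 9. The 17 genes with no assigned peak included Hoxa2, Hoxa6 and Hoxa9 in HoxA, Hoxb2 and Hoxb3 in HoxB, Hoxc5, Hoxc6, Hoxc9 and Hoxc11 in HoxC, and Hoxd1, Hoxd3, Hoxd4, Hoxd8, Hoxd9, Hoxd10 and Hoxd13 in HoxD. Genes of groups 1 to 8 had a peak in 12 of 23 cases and those of groups 9 to 13 in 10 of 16. The first range takes in the middle of the clusters, so it does not describe their anterior end. There Hoxa2, Hoxb2 and Hoxd1 had no assigned peak, and those of Hoxb1 lay at least 35.2 kb from its start. A missing assignment is not a closed gene, since 2 of the 17 had a peak of another name within 1 kb of their 5′ end and 6 had one over the gene body. For Hoxc6 the nearest peak, 834 bases away, was assigned to Hoxc8.

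**Figure D1:**
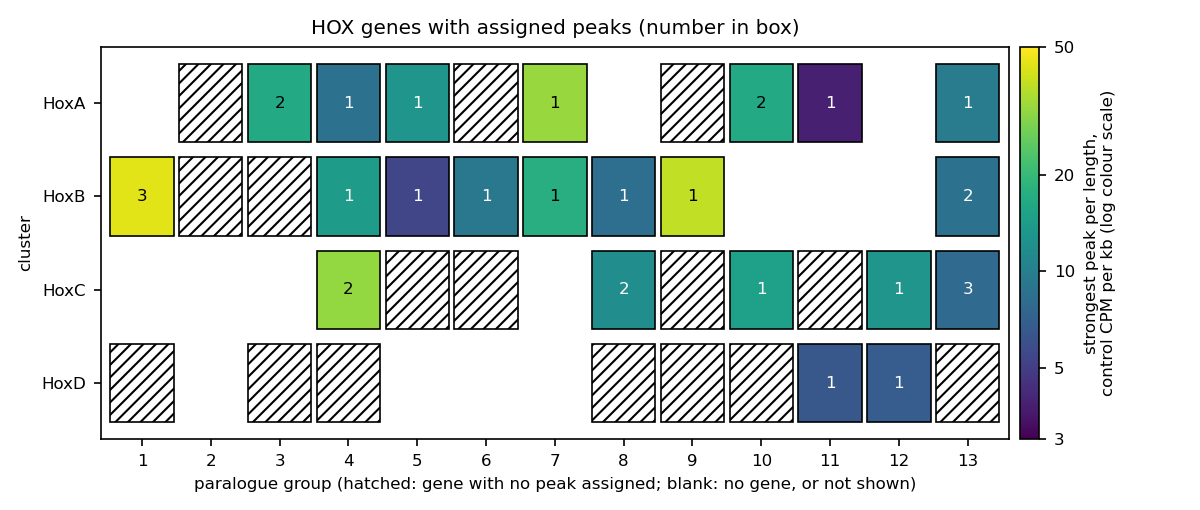
Each box is a mouse HOX gene, with the cluster on the vertical axis and the paralogue group on the horizontal axis. The number is the count of assigned peaks, and the colour is the control level of the gene's strongest peak per length (CPM per kb, log scale). Hatched boxes are genes with no assigned peak, 7 of which are in HoxD, and a blank position holds no gene or one that is not shown.

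HOX peaks at promoters had a lower median level than promoter peaks in general, while 5 of 31 HOX peaks and 7588 of all 70429 tested peaks were at a promoter. Of the others 16 were intergenic, 4 in introns, 2 in non-coding transcripts, and 1 each in a 5′ UTR, a 3′ UTR, an exon and a transcription termination site. Only 8 lay within 1 kb of the TSS they were assigned to, 16 lay between 1 and 10 kb, and 7 beyond 10 kb. All 7 distant peaks lay outside the clusters, 3 beyond Hoxb1, 2 beyond Hoxc13 and 2 beyond Hoxc4. Per length, the median control level was 11.3 CPM per kb for the 31 HOX peaks and 12.1 for all tested peaks. The 5 HOX promoter peaks had a median of 8.65 CPM per kb, against 30.9 for all 7588 promoter peaks. By cluster the medians were 13.0 CPM per kb in HoxA, 9.29 in HoxB, 11.8 in HoxC and 6.62 in HoxD. The highest levels per length were at the distant Hoxb1 peak 48.1 kb downstream (44.1 CPM per kb), upstream of Hoxb9 (38.3) and upstream of Hoxa7 (32.4). The lowest were at the Hoxc13 peak 81.5 kb upstream (3.59) and upstream of Hoxa11 (3.83).

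Between Hira shRNA and control, 7 of the 31 HOX peaks rose and 0 fell in edgeR's quasi-likelihood test on the 4 libraries (Benjamini-Hochberg adjusted p under 0.05 over all peaks). Over all 70429 tested peaks 14.4% were called higher and 11% lower, so the share of higher calls in HOX peaks, 7 of 31, stands beside a background that was itself high. The 2 largest rises were both at peaks assigned to Hoxc13, at its promoter and 81.5 kb upstream, outside the cluster. Hoxc13 is the most posterior gene of HoxC and is known for its role in hair and nails. The other 5 rises were at Hoxc8, Hoxa4, Hoxa10 and, in 2 cases, in the region beyond Hoxb1, with folds between 1.23 and 2.39. By cluster, 2 of 9 HoxA peaks, 2 of 11 HoxB peaks, 3 of 9 HoxC peaks and 0 of 2 HoxD peaks rose. The median log2 fold change was 0.22 over the 31 peaks and 0.0019 over all peaks, and 23 of 31 were positive, against 50.2% of all tested peaks. Under the library scaling recovered from the authors' fold changes, which shifts the median of all peaks to −0.26, the HOX median was −0.04.

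These calls rest on how the control libraries are treated: SEs and adjusted p-values come from the fit to 4 libraries unless another is named, so they do not match the n of the control level. With the controls counted as 1 sample, the quasi-likelihood test called 0 HOX peaks and 0% of all peaks (smallest adjusted p 0.0704), with 4 HOX peaks and 15562 of all peaks at an unadjusted p under 0.05. On the same summed controls, edgeR's likelihood ratio test called 2 HOX peaks higher, against 7.51% of all peaks. Its newer quasi-likelihood estimate also called 2, against 8.46%. In both fits these were the Hoxc13 promoter peak and the Hoxc13 peak 81.5 kb upstream. The authors' deposited table called the same 2 HOX peaks higher and no other, against 8.48% of all its peaks. That call is stricter than an adjusted p under 0.05. It left out the Hoxb1 peak at 35.2 kb (deposited log2 fold change 0.951, adjusted p = 0.0185). The Hoxc4 peak at 51.6 kb was also left uncalled there (−0.946, adjusted p = 0.0174).

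Without any test, both Hira libraries lay at least 2-fold above the summed controls at 2 of 31 HOX peaks, again the Hoxc13 pair, and at 7.91% of all tested peaks. Both lay at least 2-fold below at 0 HOX peaks and at 5.47% of all. Both Hira libraries were above both controls, by any margin, at 18 HOX peaks and at 34.5% of all peaks. They were below both controls at 4 HOX peaks and at 34.3% of all, and the groups overlapped at 9. The SD of the log2 fold change was 0.64 over the 31 HOX peaks and 0.93 over all peaks. It was 0.82 over the 5 HOX promoter peaks and 0.38 over all promoter peaks, and 1.02 over the 9 HoxC peaks, both of which hold the Hoxc13 promoter peak. Differences in spread were not tested.

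**Figure D2:**
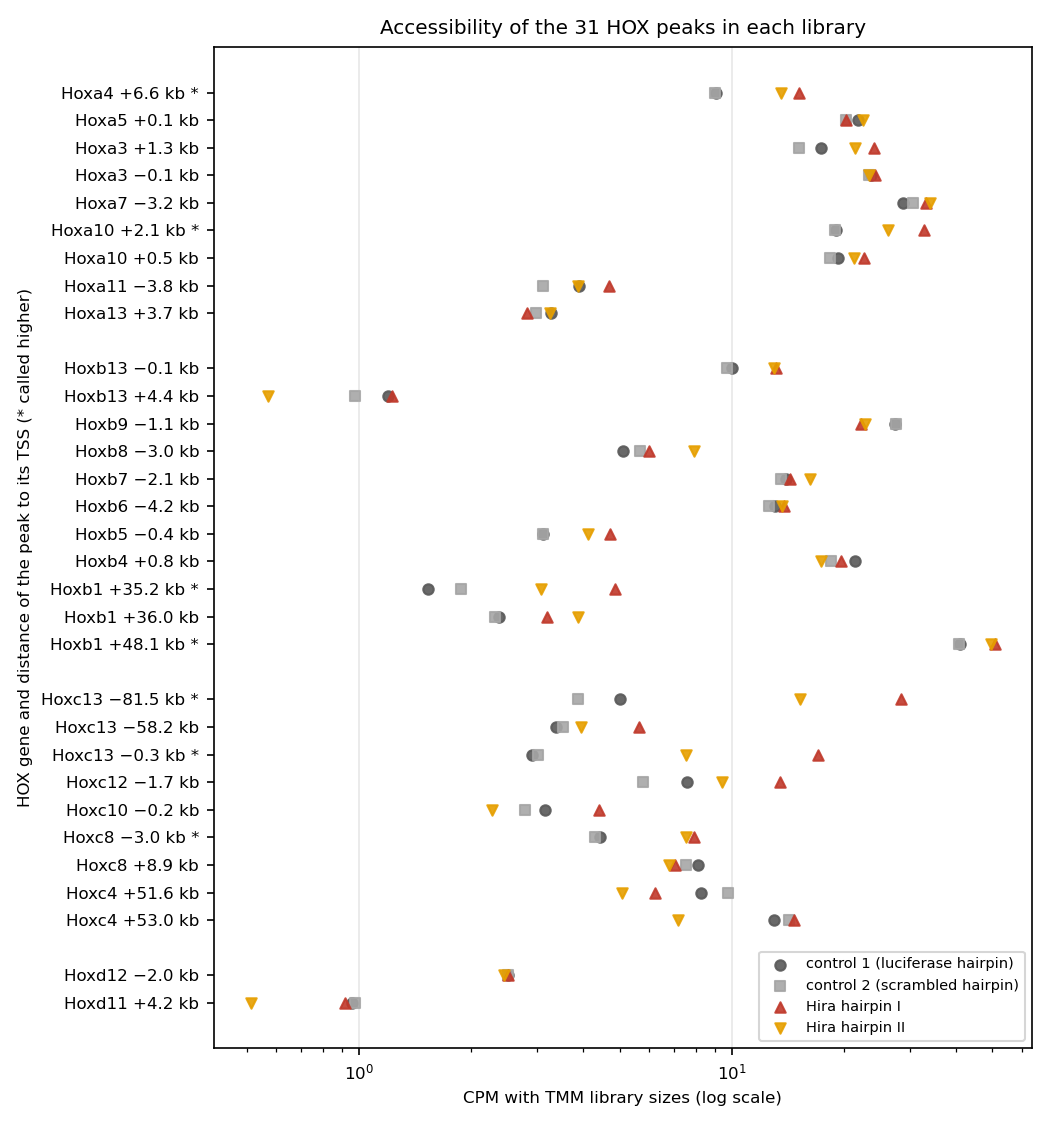
Each row is 1 of the 31 HOX peaks, grouped by cluster in order of position, with its level in each of the 4 libraries in CPM on a log axis; an asterisk marks the 7 peaks called higher. The controls nearly coincide in most rows, and the Hira libraries stand clearly apart from them at the Hoxc13 peaks 81.5 kb and 0.318 kb upstream.

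The largest differences were at peaks assigned to Hoxc13. Its promoter peak (mm10 chr15:102920625-102921001, ending 130 bases before the RefSeq start) had 2.92 and 3.01 CPM in the controls, 17.0 under hairpin I and 7.53 under hairpin II. Both Hira libraries were above both controls, and hairpin I was the higher. From 2.96 CPM the level rose to 12.3 ± 6.71 (log2 fold change 2.07, SE 0.41, edgeR adjusted p = 0.0213). Counting the controls as 1 sample gave an adjusted p of 0.0859 by quasi-likelihood, 0.015 by the likelihood ratio test and 0.0297 by the newer estimate. Leaving out hairpin I gave a log2 fold change of 1.35, and leaving out hairpin II 2.52. Few promoter peaks rose as much: by log2 fold change this peak was number 35 of 7588 promoter peaks (0.461% at or above it). The rank was not matched for level, and this peak was weak, 2.96 CPM in the controls against a promoter median of 31.7. Of the 5 HOX promoter peaks this 1 rose, against 4.72% of all promoter peaks.

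The intergenic peak 81.5 kb upstream of Hoxc13 (chr15:102838993-102840248) lies outside the cluster, between Hoxc13 and the long non-coding gene Gm36560. It had 5.00 and 3.86 CPM in the controls, 28.4 under hairpin I and 15.2 under hairpin II. As at the promoter, hairpin I gave the higher of 2 values that both exceeded the controls. From 4.51 CPM the level rose to 21.8 ± 9.32 (log2 fold change 2.31, SE 0.33, edgeR adjusted p = 0.0133). Counting the controls as 1 sample gave an adjusted p of 0.0704 by quasi-likelihood, 0.000772 by the likelihood ratio test and 0.0246 by the newer estimate. Leaving out hairpin I gave 1.76, and leaving out hairpin II 2.65. Among the 62841 peaks that are not at a promoter, it ranked 1922 (3.06% at or above it). Of the 26 HOX peaks away from promoters 6 rose, against 15.5% of all such peaks. The authors' deposited table gives log2 fold changes of 1.98 (adjusted p = 6.68e-07) for this distant peak and 1.74 (adjusted p = 1.84e-05) for the promoter peak.

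The remaining Hoxc13 peak, 58.2 kb upstream and between those 2, had 3.37 and 3.52 CPM in the controls and 5.64 and 3.93 under hairpins I and II. Both Hira values were above the controls, but the difference did not pass the test (log2 fold change 0.49, adjusted p = 0.229). At Hoxc12, the next gene of the cluster, the peak in a CpG island 1.74 kb upstream had 7.56 and 5.78 CPM in the controls and 13.5 and 9.41 under the hairpins (0.78, adjusted p = 0.0727). Hoxc10, a gene of hindlimb and lumbar identity, had a promoter peak with 3.16 and 2.79 CPM in the controls and 4.42 and 2.28 under the hairpins, which overlapped the controls (0.22, adjusted p = 0.683).

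Central and anterior HoxC genes did not move as one. The peak 2.96 kb upstream of Hoxc8, a gene of thoracic identity, had 4.43 and 4.30 CPM in the controls and 7.92 and 7.53 under the hairpins. The groups did not overlap and the hairpins were close to each other (log2 fold change 0.83, SE 0.19, adjusted p = 0.0322). With the controls as 1 sample the adjusted p ranged from 0.154 to 0.346 over the 3 tests. The second Hoxc8 peak, 8.85 kb downstream and nearer to Hoxc6, had 8.11 and 7.53 CPM in the controls and 7.03 and 6.79 under the hairpins (−0.17, adjusted p = 0.521). Beyond Hoxc4, the most anterior gene of this cluster, a CpG island peak 51.6 kb downstream had 8.28 and 9.79 CPM in the controls and 6.22 and 5.08 under the hairpins. This was the lowest log2 fold change of any HOX peak, −0.66 (adjusted p = 0.0707). Under the authors' scaling it was −0.94 and passed (adjusted p = 0.0132), the 1 HOX peak called lower there, against 19% of all peaks. The peak at 53.0 kb had 13.0 and 14.2 CPM in the controls, 14.7 under hairpin I and 7.19 under hairpin II, so the hairpins lay on opposite sides of the controls.

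In HoxA, 2 of 9 peaks rose and both rises were under 2-fold. Hoxa10, which acts in limb, uterus and blood development, had an intronic peak (chr6:52232039-52233719) 2.06 kb downstream of an internal start. The distance of its 5′ UTR peak (chr6:52239789-52240935) is from the outer start, so the 2 distances cannot be compared. The intronic peak had 19.0 CPM in each control, 32.8 under hairpin I and 26.3 under hairpin II (log2 fold change 0.64, SE 0.14, adjusted p = 0.0261). The Hoxa10 peak over its 5′ UTR, which covers part of the promoter window printed above, had 19.2 and 18.4 CPM in the controls and 22.7 and 21.3 under the hairpins (0.22, adjusted p = 0.208). The peak assigned to Hoxa4, a gene of cervical identity, lies 6.62 kb downstream of its start in an intron of a Hoxa3 transcript, in a simple repeat of TCC units (chr6:52184554-52185612). It had 9.05 and 9.04 CPM in the controls and 15.1 and 13.5 under the hairpins (0.66, SE 0.15, adjusted p = 0.0318). With the controls as 1 sample neither rise passed any of the 3 tests, and the adjusted p ranged from 0.091 to 0.203 for Hoxa10 and from 0.148 to 0.389 for Hoxa4.

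The other HoxA peaks had log2 fold changes between −0.06 and 0.49. Hoxa3, which patterns the neck and pharyngeal arches, had a promoter peak with 23.7 and 23.4 CPM in the controls and 24.3 and 23.4 under the hairpins (0.02, adjusted p = 0.891). Its second peak, in a CpG island 1.31 kb downstream, had 17.4 and 15.1 CPM in the controls and 24.0 and 21.4 under the hairpins, just short of the threshold (0.49, adjusted p = 0.0516). The Hoxa5 peak over the CpG-rich window printed above had 21.8 and 20.2 CPM in the controls and 20.2 and 22.5 under the hairpins (0.02, adjusted p = 0.907). Hoxa5 is known for its part in lung development. The CpG island peak 3.2 kb upstream of Hoxa7 had 28.8 and 30.7 CPM in the controls and 33.2 and 33.9 under the hairpins (0.18, adjusted p = 0.205). The posterior genes Hoxa11 and Hoxa13, which act in the forearm and the digits, had weak peaks at 3.56 and 3.15 CPM in the controls. Their log2 fold changes were 0.28 (adjusted p = 0.451) and −0.06 (adjusted p = 0.869).

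In HoxB the rises were outside the cluster, in the stretch between Hoxb1 and Skap1. Hoxb1, which specifies rhombomere 4 identity and facial motor neurons, had no peak near its start, and its 3 peaks lay 35.2, 36.0 and 48.1 kb downstream. The first (chr11:96400765-96401147) had 1.53 and 1.88 CPM in the controls and 4.86 and 3.08 under the hairpins (log2 fold change 1.26, SE 0.32, adjusted p = 0.0395). The neighbouring peak had 2.37 and 2.32 CPM in the controls and 3.19 and 3.88 under the hairpins (0.57, adjusted p = 0.145). The furthest (chr11:96413401-96414325), the strongest HOX peak, had 40.9 and 40.7 CPM in the controls and 50.8 and 49.6 under the hairpins (0.30, SE 0.07, adjusted p = 0.0366). Its rise was 1.23-fold and was 0.04 on the log2 scale under the authors' scaling (adjusted p = 0.924). With the controls as 1 sample the adjusted p of the first and furthest peaks ranged from 0.0855 to 0.22 and from 0.28 to 0.533.

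No peak inside the HoxB cluster passed the test. Hoxb9, a thoracic gene, had a peak 1.13 kb upstream with 27.4 and 27.7 CPM in the controls and 22.2 and 22.8 under the hairpins (−0.29, adjusted p = 0.0824). It was the only HOX peak above 10 CPM in the controls at which both Hira libraries were below both controls. Hoxb4, known for its effect on blood stem cells, had an exonic peak with 21.4 and 18.4 CPM in the controls and 19.7 and 17.3 under the hairpins, so the groups overlapped (−0.10, adjusted p = 0.632). Hoxb13, a gene of the tail and the prostate, had a promoter peak with 10.0 and 9.70 CPM in the controls and 13.1 and 13.0 under the hairpins (0.41, adjusted p = 0.0969). The Hoxb5 promoter peak had 3.11 CPM in both controls and 4.72 and 4.11 under the hairpins (0.51, adjusted p = 0.157). The peaks of Hoxb6, Hoxb7 and Hoxb8, genes of the trunk, gave log2 fold changes of 0.10, 0.14 and 0.37 (adjusted p from 0.291 to 0.618), and the second Hoxb13 peak gave −0.20 (adjusted p = 0.743).

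HoxD was the cluster with the fewest peaks. Hoxd11 and Hoxd12, posterior genes of the limb and the genital tubercle, had 1 peak each. The Hoxd12 peak 1.95 kb upstream had 2.51 CPM in each control and 2.51 and 2.45 under the hairpins (log2 fold change 0.01, SE 0.23, adjusted p = 0.987). The Hoxd11 peak lies 4.18 kb downstream over a non-coding transcript and had 0.957 and 0.973 CPM in the controls and 0.917 and 0.513 under the hairpins (−0.37, SE 0.39, adjusted p = 0.536). At these levels, with 4.5 to 52.5 tags per library, small differences were not detectable. Hoxd13, Hoxd10, Hoxd9, Hoxd8, Hoxd4, Hoxd3 and Hoxd1 had no peak of their own.

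**Figure D3:**
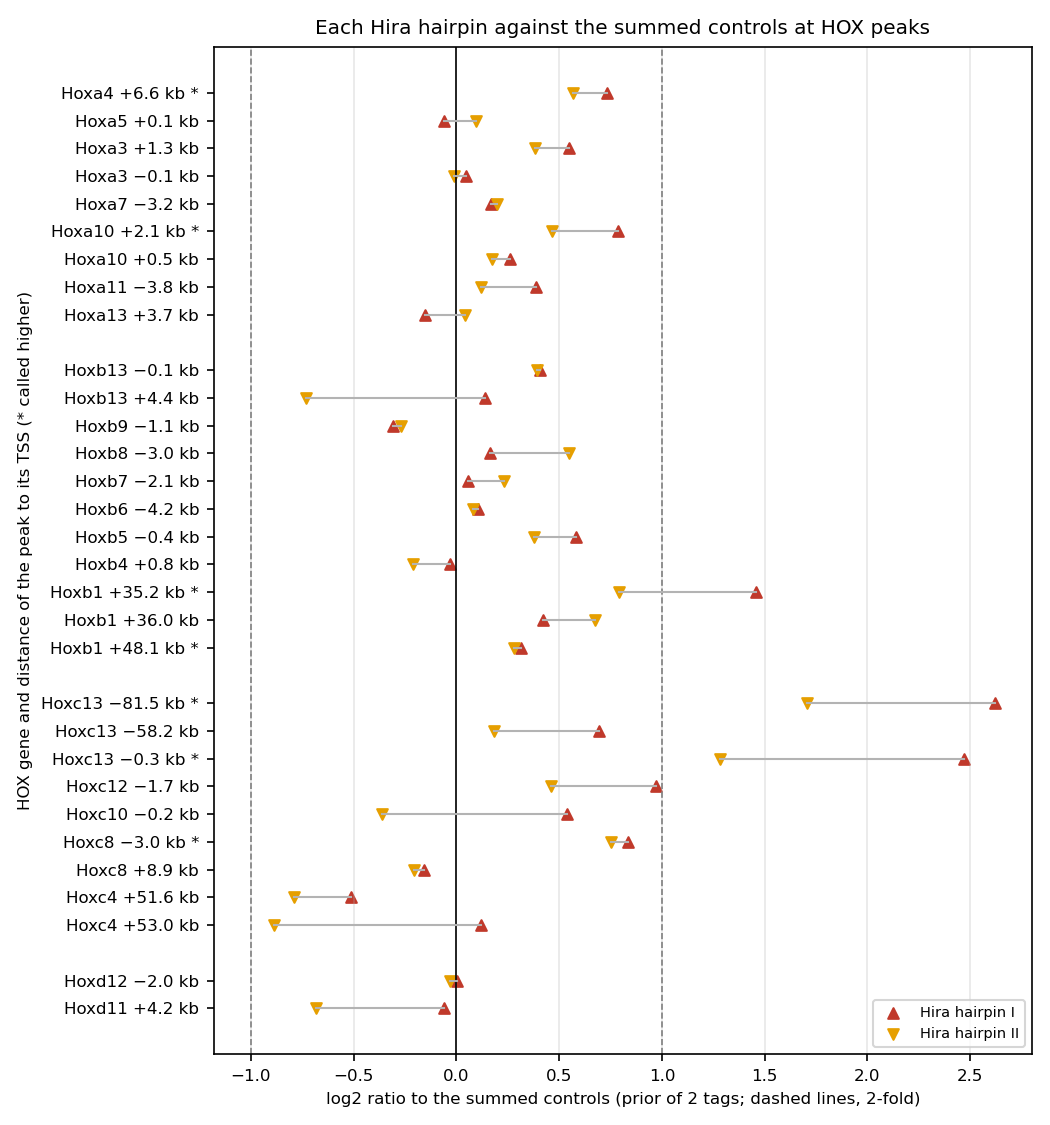
For each of the 31 HOX peaks the log2 ratio of each Hira hairpin to the summed controls is plotted on the horizontal axis (prior of 2 tags), with dashed lines at 2-fold and an asterisk at the 7 peaks called higher. Both hairpins are past the 2-fold line only at the Hoxc13 peaks 81.5 kb and 0.318 kb upstream, and no peak is past it on the lower side.

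Paralogues with peaks in more than 1 cluster gave like values in some groups and unlike values in others. In group 13 the promoter peak of Hoxc13 rose, that of Hoxb13 gave 0.41 and the Hoxa13 peak −0.06, while Hoxd13 had no assigned peak. In group 10 the intronic Hoxa10 peak rose by 0.64 on the log2 scale, whereas the Hoxa10 5′ UTR peak and the Hoxc10 promoter peak both gave 0.22. In group 8 the upstream peaks of Hoxc8 and Hoxb8, at distances of 2.96 and 3.03 kb, gave 0.83 and 0.37, of which only the first passed. In group 7 the upstream peaks of Hoxa7 and Hoxb7 gave 0.18 and 0.14. In group 4 the Hoxa4 peak rose, and the peaks of Hoxb4 and Hoxc4 gave values from −0.66 to −0.10. The values were 0.02 and 0.51 for Hoxa5 and Hoxb5, 0.28 and −0.37 for Hoxa11 and Hoxd11, and 0.78 and 0.01 for Hoxc12 and Hoxd12, none of which passed. Differences between paralogues were not tested.

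**Figure D4:**
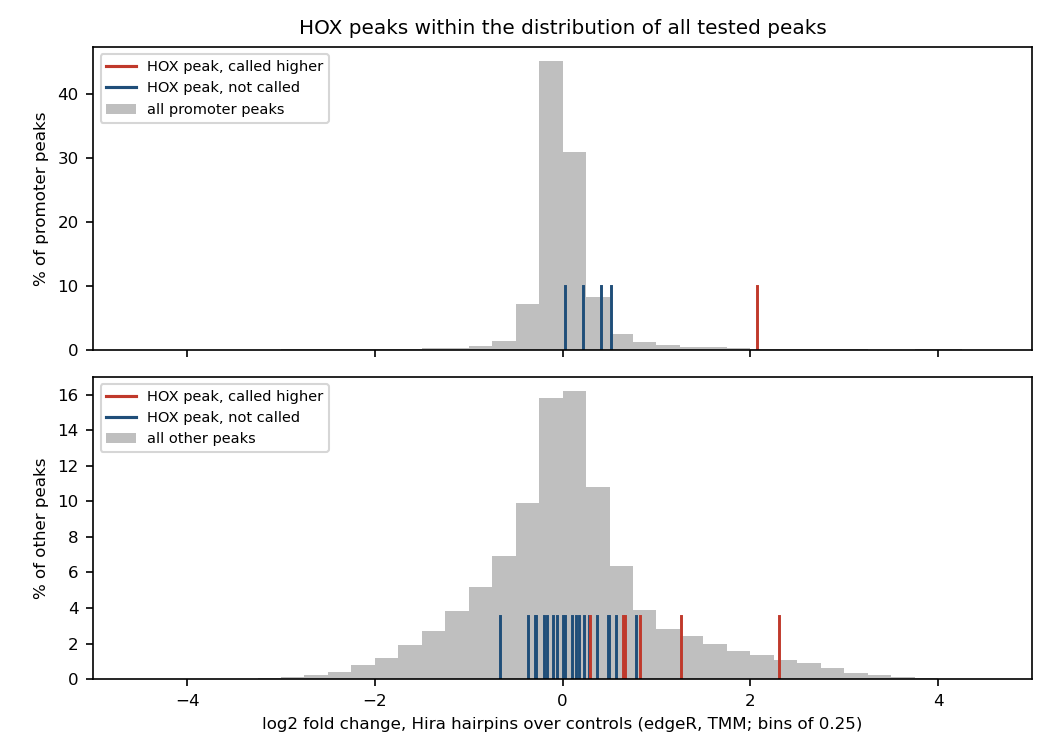
Grey bars give the share (%) of all tested peaks in bins of log2 fold change (Hira hairpins over controls, bin width 0.25), for promoter peaks in the upper panel and other peaks in the lower panel. Vertical lines mark the HOX peaks, 5 above and 26 below, in red where called higher, and their height carries no value. The Hoxc13 promoter peak at 2.07 stands far out in the narrow promoter distribution, and the distant Hoxc13 peak at 2.31 lies in the upper tail of the other peaks. The promoter distribution is mostly of stronger peaks, with a median control level of 31.7 CPM against 2.96 at the Hoxc13 promoter.

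The clusters also hold peaks that carry other gene names, 18 in all between the outer HOX genes or within 10 kb of them. Of these 8 lay between HOX peaks, with 0 called, and the other 10 gave 1 higher and 1 lower call, beside 14.4% higher and 11% lower over all peaks. The higher one was an intergenic peak 10.4 kb upstream of Hotairm2, at the anterior edge of HoxA. It had 2.97 and 2.83 CPM in the controls and 10.6 and 10.3 under the hairpins (log2 fold change 1.85, SE 0.19, adjusted p = 0.0125, and 0.00677 on summed controls by the likelihood ratio test). The lower one was 2.38 kb upstream of Evx2, a homeobox gene that borders HoxD at its posterior end. It had 1.63 and 1.57 CPM in the controls and 0.713 and 0.741 under the hairpins (−1.22, SE 0.29, adjusted p = 0.0342, and 0.147 by that test). The promoter peak of Hottip, a non-coding RNA at the posterior end of HoxA, had 0.742 and 0.628 CPM in the controls and 1.80 and 1.20 under the hairpins (1.09, adjusted p = 0.0699). The peak of Hoxd3os1, the only promoter peak inside HoxD, gave −0.01 (adjusted p = 0.981).

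Genes that regulate HOX clusters or work with HOX proteins were examined by list, with all peaks assigned to their genes. For Polycomb repressive complex 2 (PRC2), which methylates H3K27, 3 of 73 peaks rose and 8 fell, with a median log2 fold change of −0.12. A single gene, Aebp2, held 30 of these peaks and 5 of the falls. For Polycomb repressive complex 1 (PRC1), which compacts chromatin and ubiquitinates a core histone, 17 of 85 rose and 6 fell (median 0.03). Of these, 12 rises and 5 falls were at Rybp alone. For the trithorax and COMPASS group, H3K4 methyltransferases and their partners, 4 of 27 rose and 0 fell (0.04), with no peak assigned to Ash1l. TALE cofactors, the homeodomain partners with which HOX proteins bind DNA, had 12 of 59 peaks higher and 6 lower (0.08). Retinoic acid and axial regulators, upstream of HOX expression, had 22 of 112 higher and 13 lower (0.25), with no peak assigned to Cdx4. Insulator and cohesin genes had 2 of 22 higher and 1 lower (−0.07), with no peak assigned to Ctcf. As for the HOX genes, a missing assignment does not mean that the gene has no peak. These shares stand beside 14.4% and 11% over all peaks.

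Promoter peaks of these regulators passed in 2 of 45 cases, 1 higher and 1 lower and both among the retinoic acid genes, beside 358 higher and 172 lower of all 7588 promoter peaks. The promoter of Rxrg, a retinoid X receptor, had 3.90 and 3.61 CPM in the controls and 1.36 and 1.54 under the hairpins (log2 fold change −1.37, SE 0.26, adjusted p = 0.0193). That of Rarg, a retinoic acid receptor, had 36.2 and 41.5 CPM in the controls and 59.5 and 50.5 under the hairpins (0.51, SE 0.12, adjusted p = 0.0306). On summed controls neither passed the likelihood ratio test (adjusted p = 0.0562 and 0.166). No promoter peak of a Polycomb, trithorax, TALE or insulator gene passed.

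Larger differences at these genes were away from promoters. A peak 8.74 kb upstream of Rara, another retinoic acid receptor, rose from 1.67 to 12.2 ± 1.22 CPM (2.88, adjusted p = 0.0125). An intronic peak of Pknox2, a TALE homeodomain gene, rose from 5.58 to 21.5 ± 0.488 CPM (1.95, adjusted p = 0.0125). A peak 11.6 kb upstream of Kmt2a, the methyltransferase known for keeping HOX genes active, had 0.359 and 0.408 CPM in the controls and 6.93 and 3.48 under the hairpins (3.78, adjusted p = 0.0125). In PRC2, a peak 22.7 kb upstream of Eed, the subunit that reads H3K27me3, fell from 4.63 to 0.608 ± 0.188 CPM (−3.03, adjusted p = 0.0125). An intronic peak of Jarid2, which helps to recruit PRC2, fell from 14.1 to 3.96 ± 1.66 CPM (−1.88, adjusted p = 0.0143). An intronic peak assigned to Ezh2, the catalytic subunit, rose from 4.81 to 11.8 ± 1.87 CPM (1.30, adjusted p = 0.0139), a call lost on summed controls (likelihood ratio test, adjusted p = 0.0586). In PRC1, 12 of 32 peaks assigned to Rybp, a subunit of variant PRC1, rose and 5 fell. Peaks were given to genes by distance alone, and transcript levels were not measured.

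The summed levels of cell type markers also differed between the groups, with no test run. Summed over all peaks of the list, fibroblast markers, whose cells use HOX genes widely, had 280 and 271 CPM in the controls and 396 and 313 under hairpins I and II. The immune list had 22.4 and 23.1 CPM in the controls and 35.0 and 29.9 under the hairpins, and the endothelial list 97.9 and 98.4 against 165 and 111. Schwann cell markers had 435 and 439 CPM in the controls and 340 and 422 under the hairpins, and keratinocyte markers 134 and 139 against 116 and 130. Melanoblast markers had 1634 and 1623 CPM in the controls and 1279 and 1487 under the hairpins. The part of these differences in the HOX values was not tested, and a shift in cell composition and a change within each cell cannot be told apart in bulk libraries.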

How the data were processed

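ATAC-seq of 4 melb-a libraries was analysed, 1 per hairpin. Tools listed in the submitters' processing notes are cutadapt 2.3, MACS2 2.2.9.1, edgeR 3.38.4, Bowtie2 and Picard, with mm10 as the build. What each did, and filters on duplicates or mitochondrial reads, are not given in the sources used here. Peaks form 1 set shared by the libraries, with tags per peak as estimated counts deposited by the authors (all multiples of 0.5). For each peak the authors deposited, besides, a log2 fold change, a likelihood ratio score and p-values with their adjustment.

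Tags were rounded and tested with edgeR 4.0.16 (R 4.3.3): TMM factors, filterByExpr, the quasi-likelihood test with the group as the only term, two-sided, and Benjamini-Hochberg adjustment over 70429 peaks, with a threshold of 0.05. The SE was the size of the log2 fold change divided by the root of F. A prior of 2 tags entered each hairpin's log2 ratio to the controls, which were summed. The fit was tested on simulated data with the same spread in both groups. These libraries differ in spread between the groups, so that run does not check how the calls depend on the control pair. The authors' scaling was recovered from the 46005 peaks above 30 tags in each library. Alternatives were other scalings, filters, thresholds and tests (DESeq2 1.42.0, limma-voom in limma 3.58.1), the controls summed to 1 sample, a replicate block and each library left out. The newer quasi-likelihood estimate with the controls as 1 sample was chosen after seeing the data.

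Members and gene lists were chosen with earlier results of these data known. Every HOX peak is accounted for. A result at another peak of the clusters is not reported here. Peaks of the 6 regulator lists were named only if they passed, at most 4 per list by p plus all promoter peaks that passed. These promoter peaks, Hottip, Hoxd3os1 and the Aebp2 and Rybp counts were chosen after their values were seen. The distances of 29 of 31 HOX peaks placed the TSS within 3 bases of a RefSeq GRCm38.p6 start, so mm10 and RefSeq coordinates were used together. Distances to a 5′ end are to the outermost end of the RefSeq gene. Figures were drawn with matplotlib 3.10.9.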

Additional observations from a re-analysis of the deposited data

How the results depend on the processing

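HOX values that passed kept their direction under every alternative run, and many lost their call. Of 556 values of single HOX peaks under the alternatives, 482 stayed on the same side of the threshold, 49 no longer passed and 25 newly passed. Sign changed in 20 of the 482, all values that had not passed, and in 0 passing values. The log2 fold change ranged from 1.76 to 2.65 at the distant Hoxc13 peak and from 1.35 to 2.52 at the Hoxc13 promoter over 18 alternatives. Both lost their call only with the controls as 1 sample in the quasi-likelihood test, without either control, and at an adjusted p under 0.01 with at least 2-fold. Against 7 HOX peaks higher and 0 lower, DESeq2 called 3 higher, beside 7503 of all peaks. The authors' scaling called 3 higher and 1 lower, beside 7816 and 13383 of all. The likelihood ratio test called 9 higher and 1 lower, beside 12896 and 11198 of all. On the 4 libraries limma-voom called 8 higher and the newer estimate 9, beside 10912 and 11818 of all. The HOX counts with the controls as 1 sample are given above (likelihood ratio, newer estimate, quasi-likelihood). The stricter threshold called 0. Over all peaks, 10127 higher and 7713 lower became 5287 and 3255, 5957 and 4008, and 0 and 0 in those 3 fits, and 0 and 0 under the stricter threshold. The authors' scaling called 13383 lower and DESeq2 4947 lower, and the causes were not tested. Under the authors' scaling 36.9% of calls were higher, against 56.8%.

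With each library left out in turn, HOX calls ranged from 0 to 14 higher and from 0 to 3 lower, and calls over all peaks from 0 to 21793 higher and from 0 to 21206 lower. The low ends came without control 1 or control 2, where 1 control library is assumed to vary like the Hira pair. The high ends came without a hairpin, where the spread is that of the control pair alone. The lists of peaks at least 2-fold higher under both hairpins held 4 HOX peaks at 1.5-fold and 1 at 3-fold instead of 2, and 9693 and 2141 peaks of all instead of 5570. Those at least 2-fold lower held 8735 and 919 of all instead of 3852.

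The column numbers did not pair the libraries (correlation of same-numbered deviations −0.00725). With the number as a replicate block 5 HOX peaks were higher and 0 lower, among 10275 higher and 8671 lower of all. Hoxa4, Hoxc8 and the Hoxb1 peak at 48.1 kb no longer passed (adjusted p = 0.0508, 0.0545 and 0.0626), and Hoxc12 did. The low tag numbers of the HoxD peaks limit what could be detected there.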
